A study of Mus musculus with 12 samples.

Results

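Collagen genes and a set of matrix genes typical of fibroblasts were followed in cell populations taken from mouse colon adenomas. The members were all genes whose only symbol on the array named a collagen chain, together with 12 matrix genes listed by name, which were Thbs1, Thbs2, Prelp, Sfrp1, Sfrp2, Dcn, Lum, Bgn, Sparc, Fn1, Fbn1 and Postn. In the annotation used, no probe set carried Thbs1 or Fbn1 as its only symbol, and these genes were not analysed here. That left 52 members among the 17097 genes with 1 symbol, of which 42 were collagens and 10 were listed by name. For the 25 members with more than 1 probe set, the brightest on average over the 12 arrays stood for the gene. Of the 52 members, 32 exceeded a log2 signal of 4.40, the 40th percentile of all values, on at least 3 arrays and were tested, and 20 did not. No tested member (0 of 32) had exceeded that level in 1 population alone.

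Collagens are proteins of wound chains, and the fibrillar ones are secreted as precursors, trimmed and cross-linked outside the cell. Fibrillar collagens and the small leucine-rich proteoglycans that bind them, such as decorin, are known chiefly as products of fibroblasts. Collagens of basement membranes, anchoring fibrils and cell membranes are also made by epithelial cells, and an adenoma is a benign tumour of the epithelium.

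The study divided adenoma cells by the status of Mex3a, which encodes an RNA-binding protein, and of Lgr5, which encodes a receptor of intestinal stem cells. Mex3a+ cells were taken with Lgr5 (Mex3a+ Lgr5+) or without it (Mex3a+ Lgr5-), and so were Mex3a- cells (Mex3a- Lgr5+ and Mex3a- Lgr5-), each population from the same 3 mice, MKL347, MKL358 and MKL367. Every mouse is labelled ki/+, and the labels do not say which allele this is, how a cell was called positive, or the strain and age. Adenomas of a mouse were pooled, and the labels give 500 cells for MKL358 and 2000 for MKL347 and MKL367, whose RNA was amplified, so that cell number and mouse cannot be told apart. The 12 arrays thus form 4 groups of 3, and the values are log2 signals. Without the mouse as a block, p-values measure the spread between the 3 mice within populations. That fit treats the 12 arrays as independent, although each mouse gave an array to every population. With the mouse as a block, p-values measure the spread left after differences between mice are taken out. Mex3a signal averaged 6.96 ± 0.19 on the Mex3a+ arrays and 6.28 ± 0.28 on the Mex3a- arrays (SD, n = 6 each). Lgr5 signal averaged 8.20 ± 0.25 on the Lgr5+ arrays and 6.65 ± 0.76 on the Lgr5- arrays (SD, n = 6 each). Its step by Lgr5 status was smaller within Mex3a+ cells, from 7.29 ± 0.24 to 8.38 ± 0.24 (SD, n = 3 each). Within Mex3a- cells it went from 6.01 ± 0.41 to 8.02 ± 0.06 (SD, n = 3 each). Epithelial genes were bright on every array, with Epcam, an epithelial adhesion molecule, at 11.44 to 11.77 and the keratin gene Krt8 at 11.11 to 11.56. Pdgfra and Fap, which mark fibroblasts, stayed below 4.40 on all 12 arrays, at 3.48 to 3.90 and 3.64 to 4.25. Of 36 measured fibroblast markers outside the member list, 17 stayed below that level on all arrays and 13 were above it on all. Among the 13 were Thy1 (4.75 to 5.23), Pdgfrb (5.13 to 5.46) and the brighter Vim (7.56 to 11.33), which other cells also make. The level itself lay below the array medians of 4.86 to 4.92, and whether values just above it reflect fibroblast RNA was not tested. The signal comes from the RNA of a whole pool, so fewer cells of a type and less RNA per cell cannot be told apart.

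The members showed 3 kinds of pattern. Genes of the interstitial matrix, among them Col1a1, Col3a1, Dcn and Sparc, were far higher on 1 array than on the rest. Col23a1, Col9a3, Col16a1 and Col2a1 were higher in Mex3a+ cells, while Col4a2 was lower there. Thbs2, Prelp, Sfrp2, Col9a3 and Col16a1 were higher in Lgr5+ cells of all 3 mice, a difference that passed the test when arrays were paired by mouse.

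**Figure D1:**
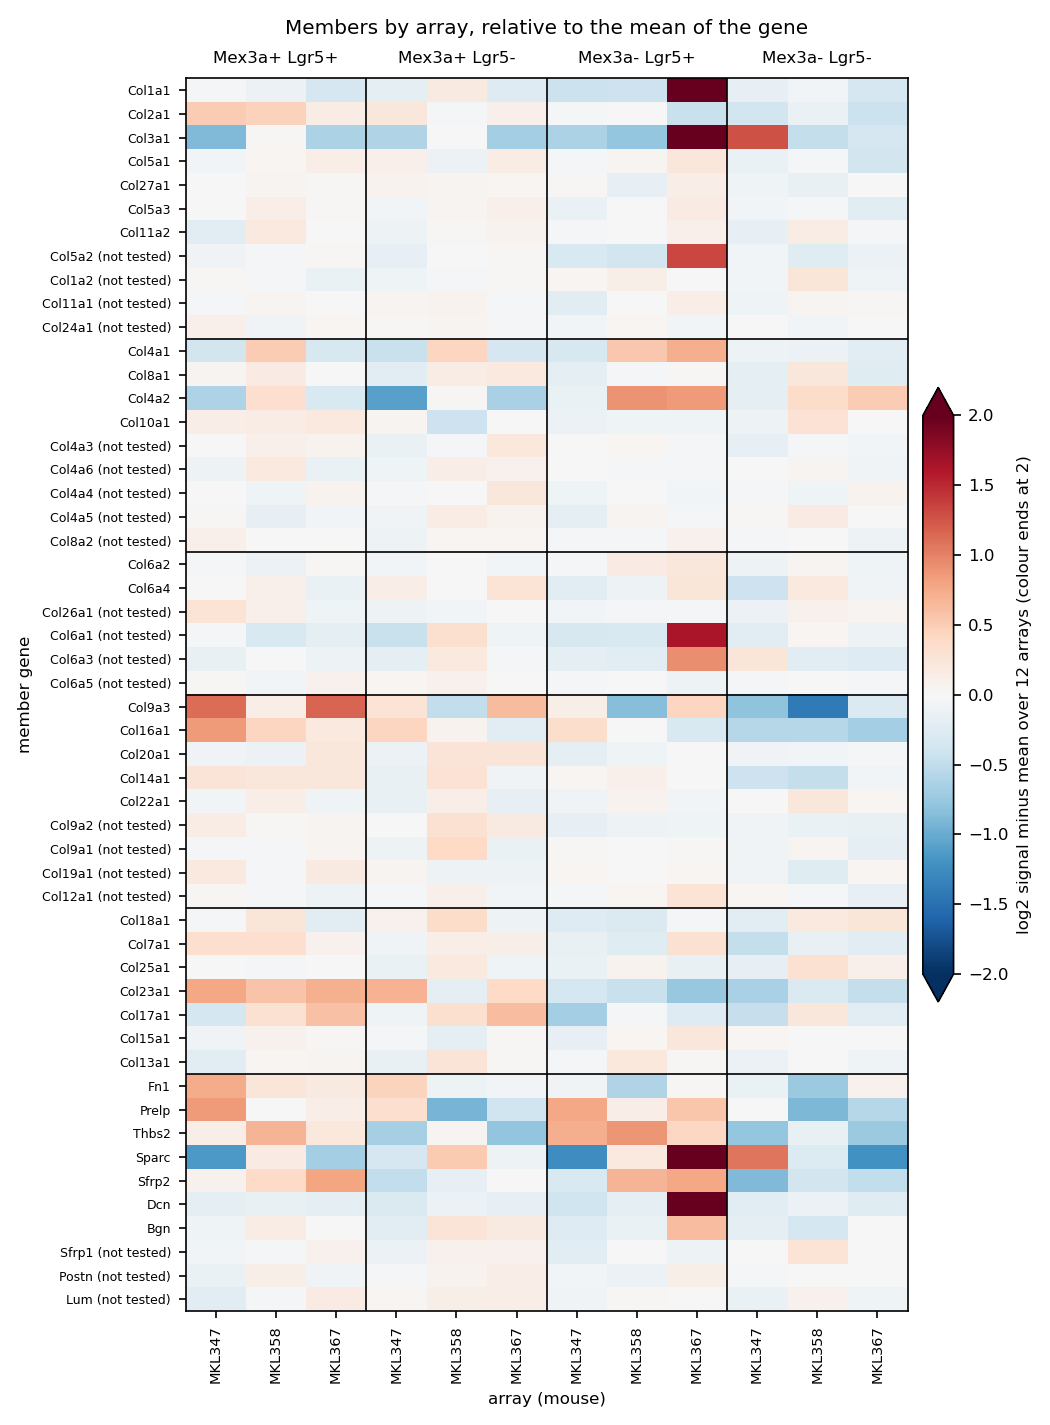
Log2 signal of the 52 members (down the page, by class, brightest first within a class) on the 12 arrays (across, by population and mouse), each minus the gene's mean over the 12 arrays; the colour scale ends at 2 log2 units on either side. Dark red in the column of the Mex3a- Lgr5+ array of MKL367 marks the matrix genes that were high there, where Col3a1 reached 9.34.

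The Mex3a- Lgr5+ array of MKL367 stood apart for the interstitial matrix. On it, 12 of all 17097 genes (0.0702%) were more than 1 log2 unit above each of the other 11 arrays, and 6 of these were members. Among tested genes this held for 5 of 12595 (0.0397%), of which 4 were members. No member (0 of 52) stood out to that extent on any of the other 11 arrays. The array held the highest value of the 12 for 16 of 52 members, beside 3.80% of all genes, and for 11 of the 32 tested members, beside 3.27% of tested genes.

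Among the fibrillar collagens, Col3a1, the chain of type III collagen, had 9.34 on that array, against 4.70 to 6.86 on the other 11, or 20.5-fold above their median. Col1a1, a chain of the main collagen of connective tissue, had 8.70 there, against 6.14 to 6.74, or 5.01-fold above the median. Col5a2, a chain of type V collagen, which takes part in fibril assembly, had 5.39 there, against 3.68 to 4.07. None of these ranges touched the value of that array, and for Col5a2 it was the only array of 12 above the level of 4.40. Col1a2, which encodes the partner chain of Col1a1 in type I collagen, had 3.78 there and 3.64 to 4.01 on the others. On the probe set used, Col1a2 thus stayed below the level on all 12 arrays. A dimmer probe set of Col3a1 lay at 2.69 to 2.88 and one of Col5a2 at 2.89 to 3.12 over the 12 arrays, so the values above rest on 1 probe set of each of these genes.

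The matrix genes listed by name differed from one another on that array. Sparc, which encodes a collagen-binding glycoprotein, had 9.37 there, against 5.10 to 7.42 on the other 11, or 9.90-fold above their median, and its dimmer probe set had 7.79, against 5.17 to 6.18. Dcn (decorin), a proteoglycan that coats collagen fibrils, had 7.25 there, against 4.60 to 4.88, or 5.46-fold above the median. Bgn (biglycan), its close relative, had 5.23 there, against 4.27 to 4.89. Chains of type VI collagen, which forms beaded filaments, were not alike. Col6a1 had 5.29 there, against 3.22 to 3.98, and Col6a3 had 4.30, against 3.10 to 3.60. Col6a2 had 6.05 there and 5.71 to 5.99 elsewhere. Lum (lumican), Postn (periostin) and Col12a1 stayed low on all 12 arrays, at 3.33 to 3.72, 3.79 to 4.06 and 2.91 to 3.35. Thbs2 had 7.91 on that array, against 8.21 and 8.38 on the other arrays of its population, and did not stand apart there.

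**Figure D2:**
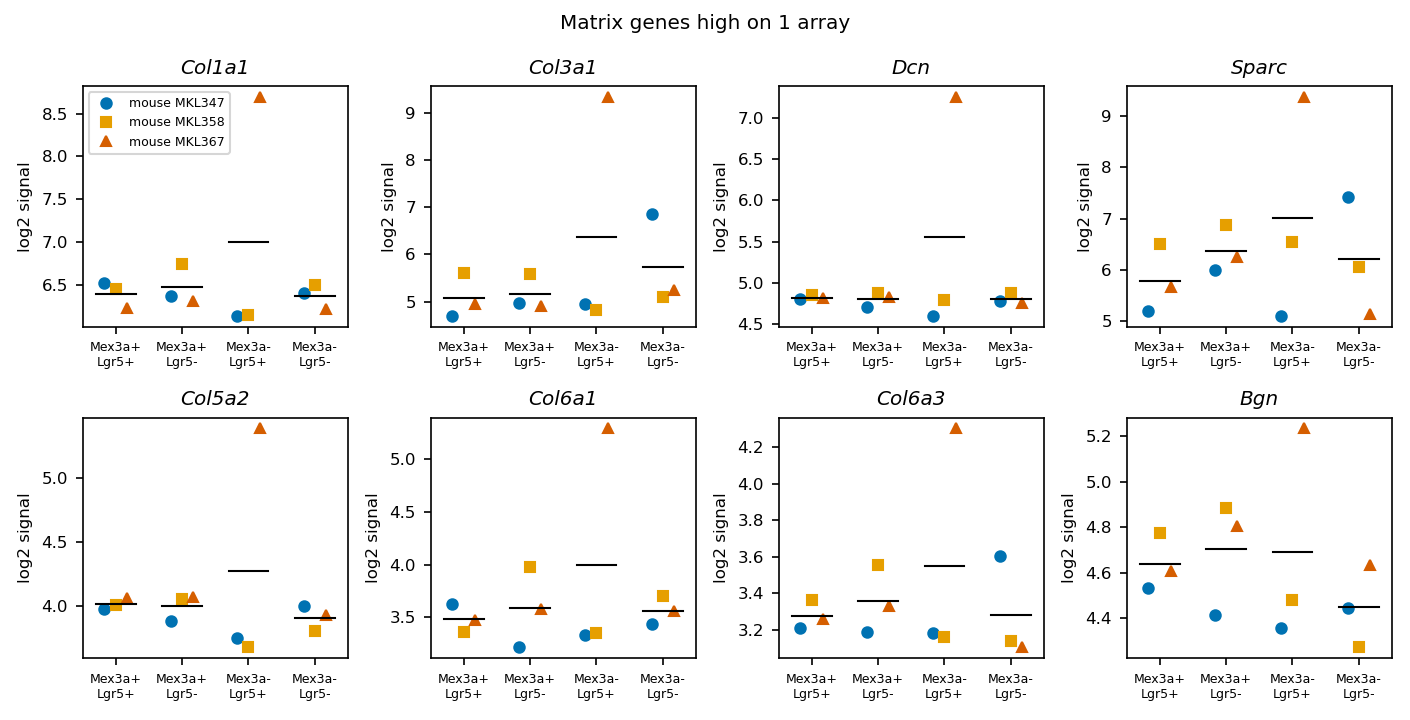
Log2 signal of 8 matrix genes by population (x axis) on each array, with a symbol for each mouse and a bar at the mean of 3 arrays. The symbol of MKL367 in the Mex3a- Lgr5+ population lies above all other points for Col3a1 (9.34), Sparc (9.37), Col1a1 (8.70) and Dcn (7.25).

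Markers of several cell types were read on the same array, as deviations from each gene's 12-array mean. The 36 fibroblast markers averaged 0.09 on the Mex3a- Lgr5+ array of MKL367 and -0.12 to 0.07 on the others. Epithelial markers averaged 0.04 there, against -0.35 to 0.31 on the others. Endothelial markers averaged 0.05 there, against -0.14 to 0.08, and smooth muscle markers 0.15, against -0.21 to 0.16. Single fibroblast markers stood above all other arrays there, 4 of the 36, beside 3.80% of all genes. Fstl1, a secreted glycoprotein, had 5.34, against 3.48 to 4.08 on the others, S100a4, a calcium-binding protein, 4.83, against 3.74 to 4.13, Mmp2, a metalloprotease, 4.84, against 3.71 to 4.39, and Thy1, a surface protein, 5.23, against 4.75 to 5.01. The array was also the highest for 3 of 15 endothelial markers, beside the same 3.80%. It was the highest for 0 of 10 smooth muscle, 0 of 15 epithelial, 0 of 16 myeloid, 0 of 7 neutrophil and 0 of 4 glial markers. A smaller excess lay on the Mex3a- Lgr5- array of MKL347, where Col3a1 had 6.86 and Sparc 7.42, each the second highest of the 12. Dcn had 4.78 and Col1a1 6.40 there. That array was the highest of 12 for 2184 of all 17097 genes. Among markers it was the highest for 5 of 16 myeloid (C1qc at 5.31, against 4.18 to 4.93 on the others) and 6 of 15 epithelial ones. The counts were 3 of 36 for fibroblast, 1 of 15 for endothelial and 1 of 10 for smooth muscle markers. The last was Rgs5, a gene of pericytes (6.21, against 4.25 to 5.86), while Pdgfrb, which pericytes also express, had 5.17, against 5.13 to 5.46. The part of other cell types in these values was not tested.

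Comparisons that include the Mex3a- Lgr5+ array of MKL367 are therefore given with and without it. For Lgr5+ against Lgr5- within Mex3a- cells, Col3a1 had a log2 difference of 0.63 (SE 0.95) with all arrays and -0.86 without it. Sparc had 0.80 (SE 0.88) and -0.38, Dcn 0.74 (SE 0.50) and -0.11, and Col1a1 0.62 (SE 0.51) and -0.23. All 4 changed sign, and none was called in either fit. For Mex3a+ against Mex3a- within Lgr5+ cells, Col3a1 had -1.28 with all arrays and 0.20 without it, Sparc -1.22 and -0.032, Dcn -0.73 and 0.12, and Col1a1 -0.60 and 0.25, none of them called. Averaged over Lgr5 states, Mex3a+ minus Mex3a- gave -0.93 (SE 0.67, adjusted p = 0.338) for Col3a1 and -0.25 (SE 0.36, adjusted p = 0.661) for Col1a1 with all arrays. Without the array these were -0.19 and 0.18. Only when the mouse was also used as a block was Col1a1 called, higher in Mex3a+ cells, at 0.22 (adjusted p = 0.0479). Thbs2, Prelp and Sfrp2 kept positive Lgr5 differences within Mex3a- cells without the array, at 1.36, 0.95 and 0.77.

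**Figure D3:**
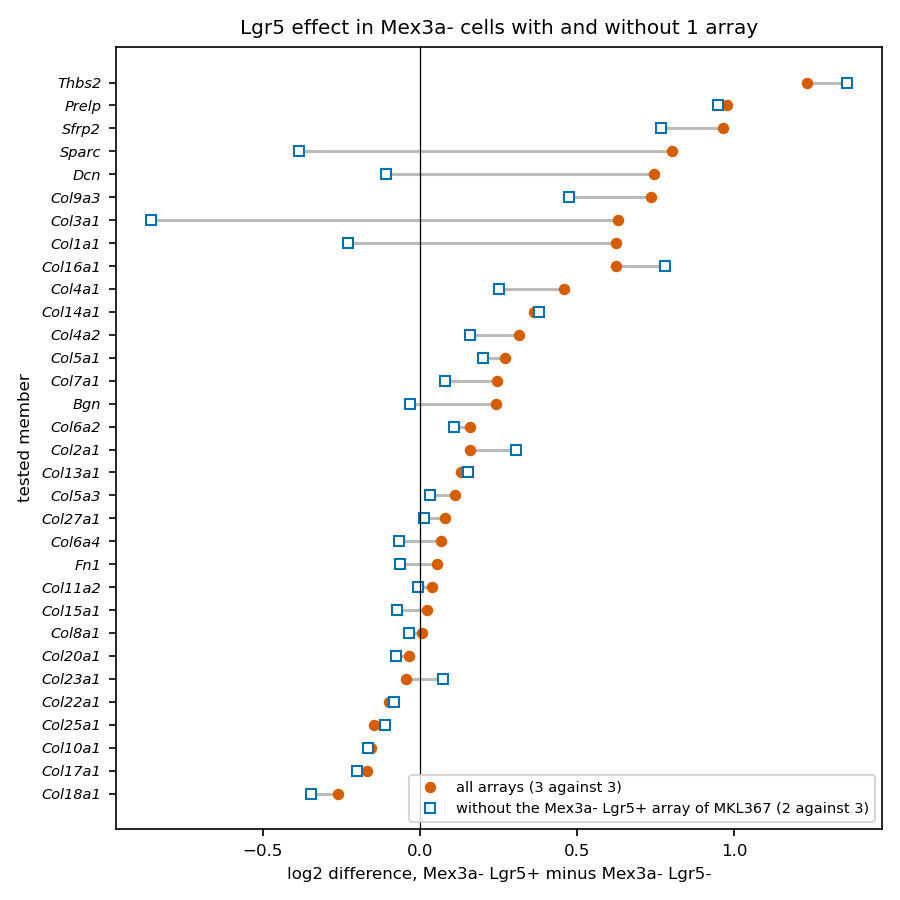
Log2 difference between Mex3a- Lgr5+ and Mex3a- Lgr5- cells for the tested members, from the fit without the mouse block, with all arrays (3 against 3) and without the Mex3a- Lgr5+ array of MKL367; a line joins both values of a gene. Col3a1, Sparc, Dcn and Col1a1 cross 0, as do some genes with smaller differences, while Thbs2, Prelp and Sfrp2 stay at 0.77 or above in both fits.

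The first comparison set Mex3a+ against Mex3a- cells, averaged over the Lgr5 states (6 arrays each). By limma, 5 of the 32 tested members were higher in Mex3a+ cells and 1 was lower, beside 27.2% of all tested genes called (9.91% higher and 17.3% lower). With the mouse as a block, which takes out differences between mice, 8 were higher and 1 lower, beside 41.2% of all genes (15.9% higher and 25.3% lower). For single genes, brackets give the log2 difference, its SE without the block unless stated, and adjusted p-values of limma over all 12595 genes. Those of a dimmer or other probe set come from a separate fit of next brightest probe sets, adjusted over 4702 genes. Those without the filter on dim genes are adjusted over 17097 genes. The median log2 difference of the 32 members was 0.08, and that of all tested genes was -0.01. Col23a1, Col9a3, Col16a1, Col2a1, Col7a1 and Col4a2 were called in both fits, and the block added Fn1, Col17a1 and Col14a1. By class, the block called 3 of 5 tested FACIT collagens (fibril-associated collagens with interrupted triple helices), 3 of 7 membrane, anchoring and multiplexin collagens and 1 of 7 fibrillar collagens, all higher. It also called 1 of 7 matrix genes listed by name (higher), 1 of 4 network collagens (lower) and 0 of 2 beaded filament collagens.

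**Figure D4:**
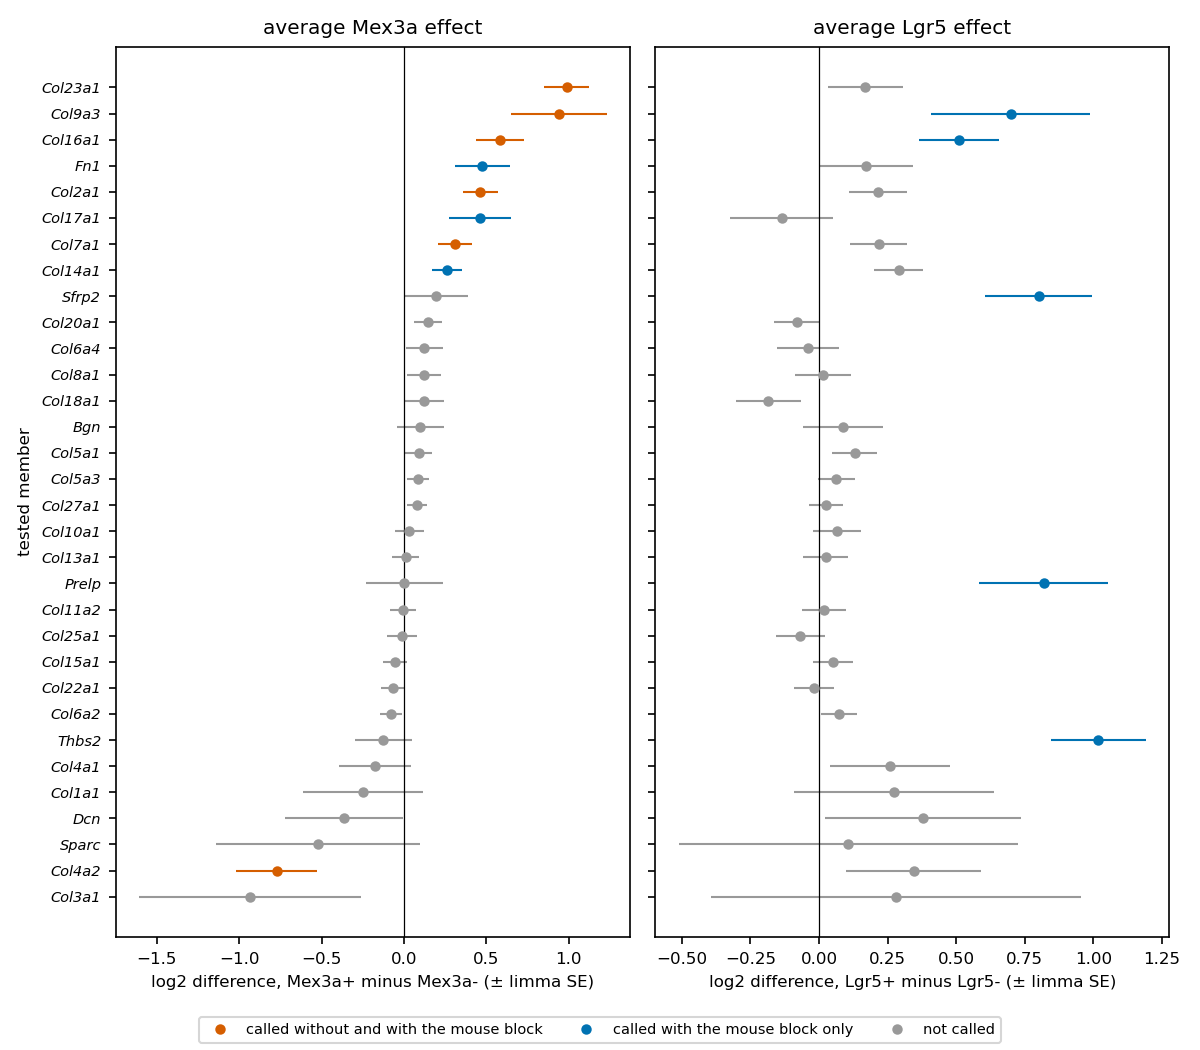
Log2 difference of each of the 32 tested members between Mex3a+ and Mex3a- cells (left) and between Lgr5+ and Lgr5- cells (right), with limma's standard error from the fit without the block as the bar. Colours mark the calls at an adjusted p under 0.05. Col23a1 lies at 0.99 in the left panel and Thbs2 at 1.02 in the right one, while Col3a1 and Sparc have wide bars.

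Col23a1, which encodes a collagen that spans the cell membrane, separated the cells by Mex3a status. It had 5.79, 5.60 and 5.72 on the Mex3a+ Lgr5+ arrays of MKL347, MKL358 and MKL367 and 5.71, 4.83 and 5.42 on the Mex3a+ Lgr5- arrays. On the Mex3a- arrays it had 4.66, 4.57 and 4.27 in Lgr5+ cells and 4.38, 4.73 and 4.54 in Lgr5- cells. All 6 Mex3a+ arrays were above all 6 Mex3a- arrays. The gene was 1.98-fold higher in Mex3a+ cells (0.99, SE 0.14, adjusted p = 0.000448, and 5.73e-05 with the block), in 3 of 3 mice, and kept its call without any 1 array or mouse. Another probe set gave 0.83 (adjusted p = 0.00104).

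Col17a1, a collagen of hemidesmosomes, the junctions that fix epithelial cells to their basement membrane, passed only with the block. It had 4.39, 5.04 and 5.32 in Mex3a+ Lgr5+ cells and 4.65, 5.06 and 5.35 in Mex3a+ Lgr5- cells of MKL347, MKL358 and MKL367. Mex3a- cells had 4.06, 4.72 and 4.48 with Lgr5 and 4.28, 4.97 and 4.53 without. The groups overlapped, MKL347 was the lowest mouse in each population, and within each mouse the Mex3a+ average was higher (0.46, SE 0.19, adjusted p = 0.0904, and 0.00233 with the block). Col7a1, the collagen of anchoring fibrils, was 1.24-fold higher (0.31, SE 0.10, adjusted p = 0.0446, and 0.0237 with the block). Its call with the block was lost without any 1 of 6 arrays (highest adjusted p = 0.0735), which were all those of MKL347 but the Mex3a+ Lgr5- one and all those of MKL358 but the Mex3a- Lgr5- one, and without MKL347 or MKL358 (highest 0.193). Col18a1, a basement membrane collagen and the brightest of this class at 6.15 to 6.82, was not called (0.12, SE 0.12, adjusted p = 0.484).

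FACIT collagens lie on the surface of fibrils, and Col9a3 had the largest difference among them. It had 9.09, 8.10 and 9.13 in Mex3a+ Lgr5+ cells and 8.26, 7.48 and 8.60 in Mex3a+ Lgr5- cells of MKL347, MKL358 and MKL367. Values in Mex3a- cells were 8.10, 7.12 and 8.40 with Lgr5 and 7.16, 6.56 and 7.69 without. MKL358 was the lowest mouse in every population, and in each mouse Mex3a+ Lgr5+ cells were the highest and Mex3a- Lgr5- cells the lowest. The gene was 1.92-fold higher in Mex3a+ cells (0.94, SE 0.29, adjusted p = 0.0314). With the block the standard error was 0.07 (adjusted p = 7.19e-07), and that call held without any 1 array or mouse. A dimmer probe set at 3.49 to 8.52 gave 1.77 (adjusted p = 0.0502). Type IX collagen is built from the products of Col9a1, Col9a2 and Col9a3, and the other two genes stayed below 4.40 on all 12 arrays, at 3.73 to 4.29 and 3.83 to 4.29. Without the filter on dim genes Col9a2 would be called higher in Mex3a+ cells, on average (0.23, SE 0.06, adjusted p = 0.0124) and within Lgr5- cells (0.28, SE 0.08, adjusted p = 0.0419).

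Col16a1, another FACIT collagen, had 7.75, 7.33 and 7.09 in Mex3a+ Lgr5+ cells and 7.33, 6.97 and 6.68 in Mex3a+ Lgr5- cells of MKL347, MKL358 and MKL367. Among Mex3a- cells it had 7.25, 6.90 and 6.60 with Lgr5 and 6.34, 6.32 and 6.23 without. The Mex3a- Lgr5- arrays were thus the 3 lowest of the 12. Col16a1 was 1.50-fold higher in Mex3a+ cells (0.59, SE 0.15, adjusted p = 0.0116, and 7.59e-05 with the block). Col14a1, a FACIT collagen at 4.22 to 4.98, passed only with the block (0.26, SE 0.09, adjusted p = 0.0501, and 0.0318 with the block). That call was lost without any 1 of 6 arrays (highest adjusted p = 0.0872), namely the Mex3a+ Lgr5- and both Mex3a- arrays of MKL358, the Mex3a+ Lgr5+ and Mex3a- Lgr5- arrays of MKL347 and the Mex3a- Lgr5+ array of MKL367, and without MKL347 or MKL358 (highest 0.151). Col12a1, a FACIT collagen of many connective tissues, was not tested.

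Col2a1, best known as the fibrillar collagen of cartilage, had 6.55, 6.50 and 6.19 in Mex3a+ Lgr5+ cells and 6.27, 6.02 and 6.14 in Mex3a+ Lgr5- cells of MKL347, MKL358 and MKL367. In Mex3a- cells the values were 6.03, 6.05 and 5.60 with Lgr5 and 5.68, 5.92 and 5.61 without. Only 1 Mex3a+ array, at 6.02, fell below the highest Mex3a- arrays, at 6.05 and 6.03. Col2a1 was 1.38-fold higher in Mex3a+ cells (0.46, SE 0.10, adjusted p = 0.0065, and 0.000707 with the block).

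Fn1 (fibronectin), a glycoprotein that links cells to matrix, was the brightest member. It had 10.10, 9.61 and 9.54 in Mex3a+ Lgr5+ cells and 9.80, 9.26 and 9.31 in Mex3a+ Lgr5- cells of MKL347, MKL358 and MKL367. Mex3a- Lgr5+ cells had 9.30, 8.77 and 9.39 and Mex3a- Lgr5- cells 9.23, 8.63 and 9.45. The mice did not share 1 pattern, for the average difference was 0.69 in MKL347, 0.74 in MKL358 and 0.0072 in MKL367. Over the mice it passed only with the block (0.48, SE 0.17, adjusted p = 0.0567, and 0.00294 with the block), and that call was lost without MKL347 or without MKL358 (highest adjusted p = 0.0677).

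**Figure D5:**
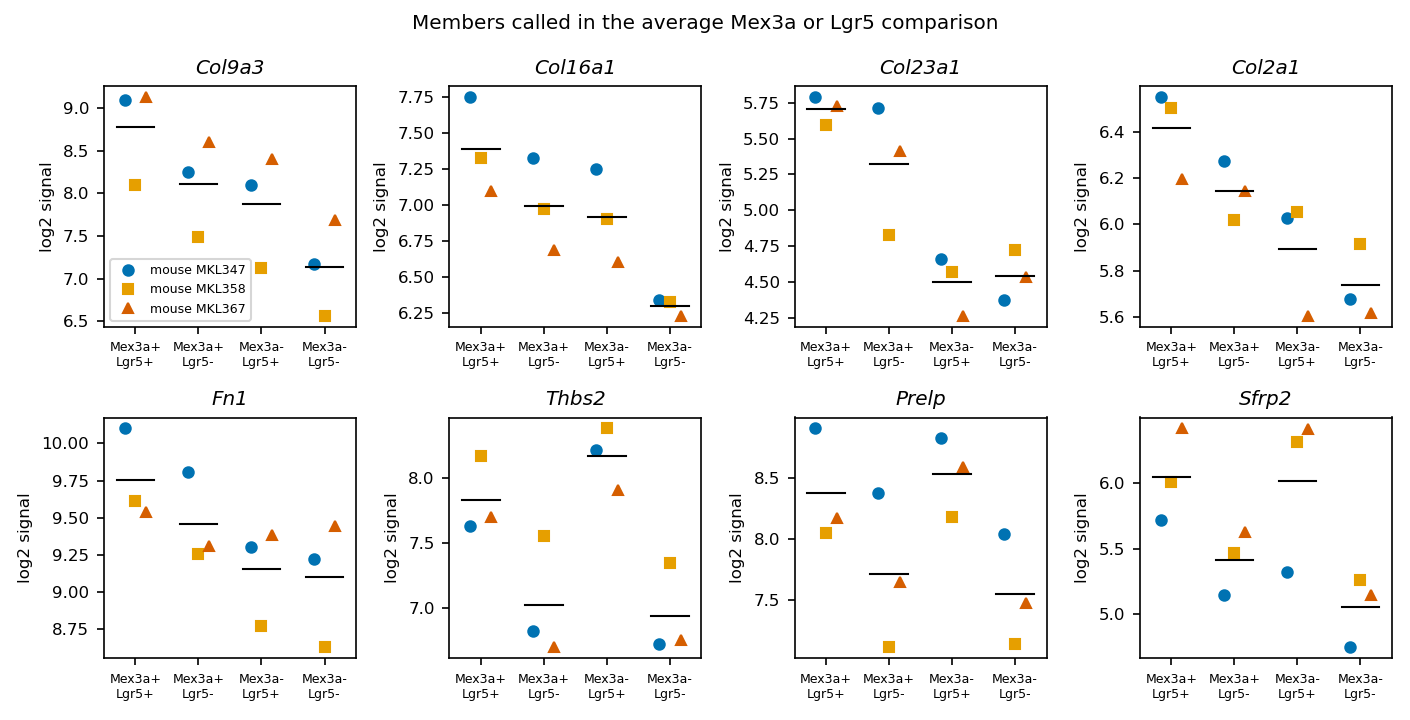
Log2 signal of members called in the average Mex3a or Lgr5 comparison, by population (x axis), with a symbol for each mouse and a bar at the mean of 3 arrays. The 6 Mex3a+ arrays lie above the 6 Mex3a- arrays for Col23a1, and the 6 Lgr5+ arrays lie above the 6 Lgr5- arrays for Thbs2.

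Col4a2 was the only member called lower in Mex3a+ cells in the average comparison. It encodes a chain of type IV collagen, the network of basement membranes, in which products of Col4a1 and Col4a2 join in 1 molecule. The genes lie head to head on mouse chromosome 8, so that the windows from 250 bases before to 50 bases after each start, from RefSeq for GRCm38.p6, share 78 bases, and the starts lie 21 bases apart. They are shown because 1 of the partner genes was called and the other was not. Capitals mark the shared bases, chr8:11312777-11312854, which are reverse complements of each other in the windows.
Col4a2 (chr8:11312555-11312854, plus strand): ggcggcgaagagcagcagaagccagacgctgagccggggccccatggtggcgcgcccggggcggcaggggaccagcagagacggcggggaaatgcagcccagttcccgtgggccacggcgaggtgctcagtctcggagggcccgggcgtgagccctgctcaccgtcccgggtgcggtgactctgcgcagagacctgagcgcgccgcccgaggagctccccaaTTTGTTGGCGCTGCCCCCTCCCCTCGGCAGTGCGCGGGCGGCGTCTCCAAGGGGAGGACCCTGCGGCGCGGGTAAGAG
Col4a1 (chr8:11312777-11313076, minus strand): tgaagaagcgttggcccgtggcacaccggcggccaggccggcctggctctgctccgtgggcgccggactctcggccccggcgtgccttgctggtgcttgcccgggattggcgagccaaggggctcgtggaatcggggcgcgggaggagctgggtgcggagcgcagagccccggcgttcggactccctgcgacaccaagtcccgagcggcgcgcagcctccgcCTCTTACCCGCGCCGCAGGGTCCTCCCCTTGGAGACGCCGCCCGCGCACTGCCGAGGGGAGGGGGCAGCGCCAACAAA
Searched on both strands, the letters CCAAT occurred 1 time in each window, the letters GGGCGG 3 times for Col4a2 and 1 time for Col4a1, and the letters TATAAA in neither. Over all 32851 promoter windows of this length, 37.4% held CCAAT, 35.7% GGGCGG and 13.6% TATAAA. These matches describe letters, not binding.

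Col4a2 had 5.22, 6.17 and 5.54 in Mex3a+ Lgr5+ cells and 4.75, 5.86 and 5.19 in Mex3a+ Lgr5- cells of MKL347, MKL358 and MKL367. Its values in Mex3a- cells were 5.72, 6.74 and 6.70 with Lgr5 and 5.66, 6.21 and 6.34 without. The groups overlapped, and the Mex3a+ average was the lower one in all 3 mice. The log2 difference was -0.77 (SE 0.25, adjusted p = 0.0364, and 0.000117 with the block). Without the Mex3a- Lgr5+ array of MKL367 it was -0.69 (adjusted p = 0.0802), and -0.70 with the block (adjusted p = 0.000427). Col4a1 was brighter, at 7.58 to 8.75, and was not called (-0.18, SE 0.22, adjusted p = 0.594, and 0.37 with the block), with a positive difference in 1 of 3 mice. Whether the Col4a2 and Col4a1 effects differ was not tested. The chains Col4a3, Col4a4, Col4a5 and Col4a6 were below 4.40 on all arrays.

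Without the block, the calls of the average Mex3a comparison other than that of Col23a1 depended on which samples entered. Col16a1 lost its call without MKL358 and Col2a1 without MKL347, and both kept it without any 1 array. Col9a3 lost its call without any 1 of 7 arrays, namely the Mex3a+ arrays of MKL347 and MKL367, the Mex3a- Lgr5+ array of MKL358 and the Mex3a- Lgr5- arrays of MKL347 and MKL358. Col4a2 lost its call without any 1 of 8 arrays and kept it without the Mex3a+ arrays of MKL358 or the Mex3a- arrays of MKL347. Col7a1 lost its call without any 1 of 8 arrays and kept it without the Mex3a+ Lgr5+ or Mex3a- Lgr5+ array of MKL367, the Mex3a+ Lgr5- array of MKL347 or the Mex3a- Lgr5- array of MKL358. Col9a3 also lost its call without MKL347 or MKL367, Col4a2 without MKL367, and Col7a1 without MKL347 or MKL358. With the block, Col23a1, Col9a3, Col16a1, Col2a1, Col17a1 and Col4a2 were called without any 1 array and without any 1 mouse.

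The Mex3a comparison was also made within each Lgr5 state (3 arrays each). In Lgr5+ cells limma called 1 of 32 members, Col23a1 (1.20, SE 0.19, adjusted p = 0.00602), beside 8.01% of all genes (3.21% higher). This call was lost without MKL347 or without MKL367. With the block 6 were higher and 2 lower, beside 22.0% of all genes (8.84% higher and 13.2% lower). Col23a1, Col9a3 (0.90), Fn1 (0.60), Col2a1 (0.52), Col17a1 (0.50) and Col16a1 (0.47) were higher, and Col4a2 (-0.74) and Thbs2 (-0.34) were lower. Without the Mex3a- Lgr5+ array of MKL367, Col17a1 (adjusted p = 0.108) and Thbs2 (0.0932) lost that call and Col7a1 gained one (0.45, adjusted p = 0.0376). Col23a1, Col9a3, Col2a1 and Col4a2 were called with the block without any 1 array, but of these Col2a1 lost the call without MKL347 or MKL367 (highest adjusted p = 0.0601) and Col4a2 without MKL367 (-0.53, adjusted p = 0.051). Among Lgr5+ arrays, Col16a1 lost its call without the Mex3a+ one of MKL347, Col17a1 also without the Mex3a- one of MKL347 or the Mex3a+ one of MKL367, and Fn1 without any 1 of the 4 of MKL347 and MKL358. Thbs2 also lost its call when any Mex3a+ Lgr5+ array, the Mex3a- Lgr5+ array of MKL347 or the Mex3a+ Lgr5- array of MKL347 was left out. Without MKL367 the calls of Col16a1, Col17a1 and Thbs2 were lost, without MKL347 those of Col17a1, Fn1 and Thbs2, and without MKL358 that of Fn1.

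In Lgr5- cells limma called 2 of 32 members, Col23a1 (0.77, SE 0.19, adjusted p = 0.0179) and Col16a1 (0.70, SE 0.21, adjusted p = 0.039), beside 16.9% of all genes (5.15% higher). Col23a1 lost this call without any 1 of 3 arrays, the Lgr5- ones of MKL347 and the Mex3a+ Lgr5- one of MKL367. Col16a1 lost it without any 1 of 6, the 3 Mex3a- Lgr5- arrays, the Mex3a+ Lgr5- arrays of MKL347 and MKL358 and the Mex3a- Lgr5+ array of MKL358. Leaving out any 1 mouse also ended this call of Col16a1 (highest adjusted p = 0.143). That of Col23a1 ended without MKL347 (adjusted p = 0.242) or MKL367 (0.187). With the block 5 were higher and 1 lower, beside 31.9% of all genes (10.8% higher and 21.1% lower). Col9a3 (0.98), Col23a1, Col16a1, Col17a1 (0.43) and Col2a1 (0.41) were higher, and Col4a2 (-0.80) was lower. The calls of Col9a3, Col23a1, Col16a1 and Col4a2 with the block held without any 1 array. Without MKL347 or MKL367 Col23a1 lost that call (lowest difference 0.49, highest adjusted p = 0.11), as did Col2a1 and Col17a1. Col2a1 lost its call without any 1 of 3 arrays, the Lgr5- arrays of MKL347 and the Mex3a+ Lgr5- array of MKL367, and Col17a1 without any 1 of 4, the Lgr5- arrays of MKL347 and MKL367, with highest adjusted p-values of 0.111 and 0.182.

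Markers of cell types, the epithelial ones included, were also read by Mex3a status. As deviations from each gene's 12-array mean, epithelial markers averaged -0.35 to -0.04 on the Mex3a+ arrays and 0.04 to 0.31 on the Mex3a- arrays, and 11 of 15 were called lower in Mex3a+ cells and 1 higher, beside 27.2% of all genes called. Neutrophil markers averaged -0.63 to 0.31 on the Mex3a+ arrays and -0.43 to 1.41 on the Mex3a- arrays, with the highest values on the Mex3a- arrays of MKL358. Of the 5 tested neutrophil markers limma called 1 lower in Mex3a+ cells, and the block 4, beside 17.3% and 25.3% of all genes. Fibroblast markers outside the member list averaged -0.02 to 0.07 on the Mex3a+ arrays and -0.12 to 0.09 on the Mex3a- arrays. The part of these markers in the members' differences was not tested.

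The second comparison set Lgr5+ against Lgr5- cells, averaged over the Mex3a states (6 arrays each). By limma 0 of 32 members were called, beside 0.0397% of all tested genes, and 6 members had p under 0.05 before adjustment, beside 6.22% of all genes. Pairing the arrays by mouse as a block gave 5 calls, all higher in Lgr5+ cells, beside 1.80% of all genes (1.18% higher). They were Thbs2, Prelp, Sfrp2, Col9a3 and Col16a1. The median log2 difference of the members was 0.12, and 0.03 without the Mex3a- Lgr5+ array of MKL367. All 5 called genes were higher in 3 of 3 mice, and with the block all 5 were called without any 1 array.

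Thbs2 encodes thrombospondin 2, a secreted protein that binds cells and matrix. It had 7.62, 8.17 and 7.69 in Mex3a+ Lgr5+ cells of MKL347, MKL358 and MKL367, against 6.82, 7.55 and 6.69 in Mex3a+ Lgr5- cells. Within Mex3a- cells it had 8.21, 8.38 and 7.91 with Lgr5, against 6.72, 7.34 and 6.75 without. All 6 Lgr5+ arrays were above all 6 Lgr5- arrays. The gene was 2.03-fold higher in Lgr5+ cells (1.02, SE 0.17, adjusted p = 0.119, and 5.85e-05 with the block). A dimmer probe set gave 0.77 (adjusted p = 0.0621 over 4702 genes, a smaller set of tests). Its difference by Mex3a status, averaged over Lgr5 states, was -0.13 (adjusted p = 0.643).

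Prelp encodes a leucine-rich repeat protein that anchors basement membranes to the tissue below. It had 8.90, 8.05 and 8.17 in Mex3a+ Lgr5+ cells of MKL347, MKL358 and MKL367, against 8.38, 7.12 and 7.65 in Mex3a+ Lgr5- cells. Within Mex3a- cells the values were 8.82, 8.18 and 8.59 with Lgr5, against 8.04, 7.14 and 7.48 without. The groups overlapped, and MKL347 was the highest mouse in each population. Prelp was 1.76-fold higher in Lgr5+ cells (0.82, SE 0.24, adjusted p = 0.414, and 0.00044 with the block). A dimmer probe set gave 0.58 (adjusted p = 0.571).

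Sfrp2 encodes a secreted protein that binds Wnt ligands. It had 5.72, 6.01 and 6.42 in Mex3a+ Lgr5+ cells of MKL347, MKL358 and MKL367, against 5.15, 5.47 and 5.63 in Mex3a+ Lgr5- cells. Mex3a- cells had 5.32, 6.31 and 6.41 with Lgr5, against 4.75, 5.26 and 5.14 without. The groups overlapped, MKL347 was the lowest mouse in each population, and within each mouse the Lgr5+ values were the higher ones at either Mex3a state. Sfrp2 was 1.74-fold higher in Lgr5+ cells (0.80, SE 0.19, adjusted p = 0.282, and 0.00226 with the block). Its relative Sfrp1, at 3.87 to 4.38 on the 12 arrays, was not tested.

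The FACIT genes Col9a3 and Col16a1 were the members called in both average comparisons. By Lgr5 status Col9a3 was 1.62-fold higher (0.70, SE 0.29, adjusted p = 0.762, and 0.00044 with the block), and Col16a1 was 1.42-fold higher (0.51, SE 0.15, adjusted p = 0.414, and 0.00832 with the block). Without MKL347 or without MKL358, Col16a1 lost its call with the block (highest adjusted p = 0.0874), and the other 4 genes kept theirs without any 1 mouse. Fn1, Col23a1, Col2a1, Col7a1 and Col14a1 had differences of 0.17, 0.17, 0.22, 0.22 and 0.29, each positive in 3 of 3 mice and none called.

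Within Mex3a+ cells (3 arrays each), limma called 0 members, beside 0% of all genes, and 3 members had p under 0.05 before adjustment, beside 2.99% of all genes. The block called Thbs2 (0.81, adjusted p = 0.0289) and Col9a3 (0.66, adjusted p = 0.0289), beside 0.0715% of all genes (0.0556% higher). Thbs2 lost that call without any 1 of 6 arrays, the Mex3a+ arrays of MKL347 and MKL367, the Mex3a+ Lgr5+ array of MKL358 and the Mex3a- Lgr5+ array of MKL367 (highest adjusted p = 0.172). Col9a3 lost it without any 1 of 8, the 6 Mex3a+ arrays and the Mex3a- Lgr5+ arrays of MKL347 and MKL367 (highest adjusted p = 0.177). Leaving out any 1 of the 3 mice ended both calls.

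Within Mex3a- cells limma called 0 members, beside 0.0318% of all genes, and 6 members had p under 0.05 before adjustment, beside 6.23% of all genes. The block called 5 members higher, beside 1.62% of all genes (0.810% higher). These were Thbs2 (1.23), Prelp (0.98), Sfrp2 (0.96), Col9a3 (0.74) and Col16a1 (0.62). Thbs2, Prelp and Col9a3 kept the call without any 1 array. Sfrp2 lost it without the Mex3a- Lgr5+ array of MKL358 (adjusted p = 0.0592), and without MKL358 or MKL367 (highest adjusted p = 0.0755). Col16a1 lost it without any 1 of 4 arrays, the 3 Mex3a- Lgr5+ arrays and the Mex3a- Lgr5- array of MKL347 (highest adjusted p = 0.0918), and without any 1 mouse (highest 0.175). Thbs2, Prelp and Col9a3 kept it without any 1 mouse.

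The interaction, which asks whether the Mex3a effect differs between Lgr5+ and Lgr5- cells, called 0 members with or without the block, beside 0% of all genes in either fit. Before adjustment 1 member had p under 0.05 without the block, beside 2.85% of all genes. It was Col10a1, a collagen known from growth plate cartilage, at 3.91 to 4.62 (0.45, SE 0.18, adjusted p = 1). Col10a1 exceeded 4.40 on only 4 arrays, the 3 Mex3a+ Lgr5+ arrays and 1 Mex3a- Lgr5- array. It thus passed the filter through the population where it was highest, and its p-value before adjustment carries no weight.

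As deviations from each gene's mean, fibroblast markers outside the member list averaged -0.05 to 0.09 on the Lgr5+ arrays and -0.12 to 0.06 on the Lgr5- arrays. Pdgfra lay at 3.58 to 3.70 on the Lgr5+ arrays and 3.48 to 3.90 on the Lgr5- arrays. Of the 16 tested markers, limma called 0 by Lgr5 status, beside 0.0397% of all genes. Before adjustment 4 had p under 0.05, beside 6.22% of all genes. With the block 3 were called higher in Lgr5+ cells and 0 lower, beside 1.80% of all genes (1.18% higher). These were Vim (0.65, SE with the block 0.10, adjusted p = 0.00975), which encodes the filament protein vimentin, Timp2 (0.51, SE with the block 0.08, adjusted p = 0.0101), an inhibitor of metalloproteases, and Fbln1 (0.40, SE with the block 0.05, adjusted p = 0.00312), a matrix glycoprotein. By Mex3a status limma called 5 higher and 1 lower, beside 27.2% of all genes, among them Vim (1.98, SE 0.29, adjusted p = 0.000615), Timp2 (1.08, SE 0.12, adjusted p = 0.000156) and Mgp (0.90, SE 0.29, adjusted p = 0.0403), an inhibitor of calcification, higher, and Dpep1 (-2.05, SE 0.26, adjusted p = 0.000308), a peptidase, lower. Vim had 9.84 to 11.33 on the Mex3a+ arrays and 7.56 to 9.47 on the Mex3a- arrays, without overlap. The part of these markers in the members' Lgr5 differences was not tested.

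Genes that modify and export collagen were read beside the chains. Of 34 symbols listed, 26 had a probe set and 20 were tested. By Mex3a status limma called 4 of the 20 higher and 2 lower, beside the 27.2% called over all tested genes, and the block 4 higher and 3 lower, beside 41.2%, with a median log2 difference of 0.02. Bmp1, a protease that trims fibrillar procollagens, was 2.19-fold higher in Mex3a+ cells (1.13, SE 0.16, adjusted p = 0.000506). Serpinh1, the chaperone of procollagen, was 1.82-fold higher (0.86, SE 0.28, adjusted p = 0.0393), and Plod1, a lysyl hydroxylase, 1.49-fold higher (0.57, SE 0.15, adjusted p = 0.0157). Pcolce2, an enhancer of procollagen trimming, was lower (-0.86, SE 0.20, adjusted p = 0.00883), as was Mia3, which loads procollagen into transport carriers (-0.36, SE 0.08, adjusted p = 0.00558). By Lgr5 status limma called 0 of the 20, beside 0.0397% of all genes, and 1 had p under 0.05 before adjustment, beside 6.22%. The block called Pcolce2, lower in Lgr5+ cells (-0.43, SE with the block 0.09, adjusted p = 0.0431), beside 1.80% of all genes called in either direction.

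The remaining tested members gave no call in any of the 7 comparisons, with or without the block. They were Col5a1, Col5a3, Col11a2 and Col27a1 among the fibrillar collagens, Col8a1 and Col10a1 among the network collagens, Col6a2 and Col6a4 among the beaded filament collagens, Col20a1 and Col22a1 among the FACIT collagens, and Col13a1, Col15a1, Col18a1 and Col25a1. Col1a1, Col3a1, Dcn, Sparc, Bgn and Col4a1 likewise had no call in these fits with all arrays. The 20 members below the filter were Col1a2, Col5a2, Col11a1, Col24a1, Col4a3, Col4a4, Col4a5, Col4a6, Col8a2, Col6a1, Col6a3, Col6a5, Col26a1, Col9a1, Col9a2, Col12a1, Col19a1, Lum, Postn and Sfrp1. Of these, Col5a2 and Col6a1 exceeded 4.40 on 1 array each, the Mex3a- Lgr5+ array of MKL367, and the other 18 on none.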

How the data were processed

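The deposited values were log2 signals of 45141 probe sets on 12 Affymetrix mouse arrays, which per the submitters' processing notes came from RMA. The version and options of RMA are not given. Per the labels' protocols, total RNA went through whole transcriptome amplification before labelling. The signals were used as deposited, with array medians of 4.86 to 4.92. Of the probe sets, 28898 had 1 gene symbol in GEO's platform table, 551 had several and 15692 none; only the first kind was used, and 3 probe sets whose several symbols include a member were left out. The brightest probe set stood for a gene, which gave 17097 genes, and 12595 that exceeded the 40th percentile on at least 3 arrays were tested.

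Limma 3.58.1 in R 4.3.3 fitted 1 mean per population with an intensity trend, and 7 comparisons were tested, 2-sided, with Benjamini-Hochberg adjustment over all tested genes within a comparison. Genes with an adjusted p under 0.05 were called. Since each population came from the same 3 animals, per the labels, a second fit used the mouse as a replicate block. Arrays of the same mouse deviated together from their population means (Pearson's r 0.349 to 0.694 over 18 pairs), unlike arrays of different mice (-0.691 to 0.152 over 48 pairs). Deviations cancel over the 3 arrays of a population, which by itself makes values for different mice negative in part. Alternatives were other filters, normalizations, probe set rules, no intensity trend, array weights, and each array or mouse left out. The block combined with left-out arrays or mice was added after seeing the data. The members and gene lists were chosen with earlier results of these data known. Named are the members called in any comparison, the listed matrix genes, the brightest of each collagen class, some common collagens, and up to 5 called genes of each other list. Promoter sequences and motif shares are from RefSeq for GRCm38.p6, in which both genes shown were matched by symbol. The fit was checked on simulated data. Python 3.11.15 with matplotlib 3.10.9 drew the figures.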

Additional observations from a re-analysis of the deposited data

How the results depend on the processing

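The counts of called members depended on whether arrays were paired by mouse as a block. In the average Lgr5 comparison 0 of 32 members were called without it, against 5 with it, 1 from averaging a gene's probe sets and 1 with array weights. Within Lgr5+ cells the Mex3a comparison called 1 member, against 8 with the block, and 2 each with the filter at the 60th percentile, the mean of probe sets or array weights. Within Lgr5- cells it called 2, against 6 with the block, 1 with arrays centred on their medians and 3 with no filter, which added Col9a2. The Lgr5 comparison called 0 within Mex3a+ cells, against 2 with the block. Within Mex3a- cells it called 0, against 5 with the block, 1 from the mean of probe sets and 1 with array weights. The block together with leaving out the Mex3a- Lgr5+ array of MKL367 gave 5 calls in the average Lgr5 comparison. Beside these, 100 of all 12595 genes were called higher and 48 lower. For Mex3a it called 7 members within Lgr5+ cells, beside 789 genes higher and 1187 lower. Within Lgr5- cells it called 7, beside 1288 higher and 2558 lower. For Lgr5 within Mex3a- cells it called 4, beside 44 higher and 28 lower. In that fit the Lgr5 difference within Mex3a- cells turned negative for Col1a1 (-0.31), Col3a1 (-1.002), Dcn (-0.11) and Sparc (-0.60). Leaving out 1 array or 1 mouse without the block, these ranged over -0.31 to 1.11, -1.10 to 1.90, -0.13 to 1.22 and -0.92 to 2.36. The same omissions gave 3 to 6 called members for average Mex3a, 0 to 1 for average Lgr5, 0 to 2 for Mex3a in Lgr5+ and 0 to 2 in Lgr5- cells, and 0 in the other comparisons. With the block they gave 6 to 10 for average Mex3a, 4 to 6 for average Lgr5, 4 to 8 and 3 to 7 for Mex3a within Lgr5+ and Lgr5- cells, 0 to 2 and 3 to 5 for Lgr5 within Mex3a+ and Mex3a- cells, and 0 for the interaction. The shares of all genes called under the other omissions and settings are not given here, so these ranges describe the members alone. For single members, 521 values with an array or mouse left out kept direction and side of the threshold, 46 lost and 10 gained a call, and 8 changed sign. Only calls of the fit without the block could be lost. These were 6 for average Mex3a and 1 and 2 for Mex3a within Lgr5+ and Lgr5- cells. Most values had no call to begin with, and those that stayed without one count as kept. Under the other settings 293 kept both, 6 lost and 57 gained a call, and 4 changed sign. The cause of these changes was not tested. The number of arrays limits the precision, and the filter left 20 dim members untested.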

Other observations

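The Mex3a- Lgr5+ array of MKL367 was also high for genes that are no collagens. These genes were picked after their values were seen. Mmp13 and Mmp10, which encode metalloproteases that act on matrix proteins, had log2 signals of 6.85, against 2.85 at most on the other 11 arrays, and 7.15, against 4.15 at most. Tnc (tenascin C), a matrix glycoprotein, had 7.03, against 3.49 at most, and Fstl1 5.34, against 4.08 at most. LOC664787 had 5.52, against 4.38 at most. These 5 genes exceeded 4.40 on too few arrays to be tested. Among tested genes that array was the highest of 12 for Pdpn (podoplanin, a membrane glycoprotein) at 6.26, against 5.24 at most, and for Lgals1 (galectin 1) at 8.72, against 7.83 at most. It was also the highest for Nid1 (nidogen 1, of basement membranes) at 5.78, against 5.21 at most. Aebp1, a collagen-binding protein, had 6.42, against 5.92 at most, and Bmp4, a secreted ligand, 5.28, against 4.78 at most. Mmd had 6.50, against 5.85 at most, and Tbc1d7 5.85, against 5.34 at most. Speer8-ps1 had 5.72, against 5.19 at most, and Gm10413 5.37, against 4.85 at most. That array was the highest for 412 of 12595 tested genes (3.27%).

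Markers of other cells were read in the average Mex3a comparison of limma, which called 9.91% of all tested genes higher and 17.3% lower. Of 12 tested endothelial genes 1 was called higher in Mex3a+ cells, Flt1, a receptor for vascular growth factors (1.08, SE 0.19, adjusted p = 0.00155). Another was called lower, Egfl7 (-0.26, SE 0.07, adjusted p = 0.0225). Of 9 tested myeloid markers 3 were lower, which were Cd14 (-1.02, SE 0.14, adjusted p = 0.000413), Tyrobp (-0.84, SE 0.26, adjusted p = 0.0308) and Fcer1g (-0.42, SE 0.14, adjusted p = 0.0428). Il1b, which encodes a cytokine of inflammation, was the neutrophil-list gene called lower (-0.83, SE 0.22, adjusted p = 0.016). Of the 15 epithelial markers the largest differences were those of Cdx1 (-1.31, SE 0.19, adjusted p = 0.000544) and Cdx2 (-1.11, SE 0.17, adjusted p = 0.000862), transcription factors of the intestine, and Vil1 (villin, of the brush border; -1.06, SE 0.11, adjusted p = 7.59e-05), all lower, while Cldn4, a tight junction gene, was higher (0.49, SE 0.12, adjusted p = 0.00977). Limma called 0 of 7 smooth muscle markers in either average comparison, beside 27.2% of all genes for Mex3a and 0.0397% for Lgr5. Before adjustment 1 had p under 0.05 for Mex3a and 1 for Lgr5, beside 4835 and 783 of all 12595 genes. With the block Acta2 was higher in Mex3a+ cells (0.42, SE with the block 0.13, adjusted p = 0.0179), beside 15.9% of all genes. Mylk was lower in Lgr5+ cells (-0.71, SE with the block 0.14, adjusted p = 0.0268), beside 1.80% of all genes called in either direction. The 1 tested glial marker was not called.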
